A study of Mus musculus with 12 samples.

Results

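Genes for making ribosomes were examined in group 2 innate lymphoid cells (ILC2s) and eosinophils that had been cultured together or apart. The members were 37 genes of a read count table of 49315 genes, taken by matching a fixed list of symbols to the Ensembl identifiers of the table through GENCODE M21, and all 37 were found. They fall into 5 genes of RNA polymerase I and its factors, 3 of the box C/D and 4 of the box H/ACA small nucleolar ribonucleoproteins, 6 abundant nucleolar proteins, 10 factors of the small (40S) subunit and 9 of the large (60S) subunit. No expression value was used to choose the rows, although the list itself was drawn up with earlier results of these data known.

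The 12 libraries formed 4 groups of 3, all from C57BL/6 mice: ILC2s cultured with eosinophils, ILC2s alone, eosinophils cultured with ILC2s, and eosinophils alone. ILC2s belong to the lymphoid lineage, carry no antigen receptor and make the cytokines of type 2 immunity. Here they came from lung by lineage depletion and sorting. They had been expanded in IL-33, IL-25, IL-2 and IL-7 and then held for 48 h in IL-2 and IL-7. Eosinophils are granulocytes of type 2 immunity, and here they were the blood fraction not held by B220 and CD90 beads, kept for 24 h in IL-33. After washing, both kinds of cell were cultured without cytokines for 24 h, alone or together, and were separated by flow cytometry. Every eosinophil library therefore came from IL-33-treated cells, including the partners of the cocultured ILC2s, and every ILC2 library came from cells expanded in culture. The age and sex of the mice, the ratio of the cells and the source of the replicates are not given in the labels. The p-values below thus measure the spread between these libraries, which may be technical, and a comparison of the cell types is also one of lung with blood and of different earlier cytokines.

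Library totals ran from 16769929 to 22928961 counts. CPM are read counts scaled to a common library size. Gene levels below used TMM, the trimmed mean of M values, over all libraries. Cell type markers, here and below, were scaled by library totals alone. The 18 lymphoid markers summed to 6051 to 6172 CPM in cocultured ILC2s and 7433 to 7556 CPM in ILC2s alone. In eosinophils they summed to 73.9 to 80.1 CPM when cocultured and 54.6 to 66.3 CPM when alone. Most of these eosinophil sums was Ets1, which averaged 65.1 CPM in cocultured eosinophils and 43.7 CPM in eosinophils alone. The 12 eosinophil markers summed to 3.58 to 4.73 CPM in cocultured ILC2s and 3.49 to 4.54 CPM in ILC2s alone, against 11710 to 11990 CPM in cocultured eosinophils and 8952 to 9438 CPM in eosinophils alone. Both labelled cell types thus carried their own markers, although Epx, the eosinophil peroxidase, was at only 13.0 CPM in cocultured eosinophils and 9.96 CPM in eosinophils alone. The signal of 11 eosinophil markers, as a share of their level in cocultured eosinophils, was 0.0313% ± 0.00609 in cocultured ILC2s. It was 0.0323% ± 0.0225 in ILC2s alone (SD, n = 3 each, exact two-sided permutation p = 1, where the smallest possible was 0.1). ILC2s alone had no partner, so their value is background. The markers were chosen partly by a low level in ILC2s alone, so the test cannot decide whether the groups differ.

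Ribosomes are assembled mainly in the nucleolus. RNA polymerase I transcribes the ribosomal RNA precursor there, small nucleolar ribonucleoproteins guide its chemical modification, and a large set of assembly factors folds and cuts it as ribosomal proteins join, giving a small and a large subunit that are exported to the cytoplasm. The pathway is known for its activity in growing and dividing lymphocytes, many of its genes are targets of Myc, and it is generally low in terminally differentiated granulocytes.

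ILC2s cultured with eosinophils carried more mRNA for nearly the whole set than ILC2s alone. Of the 37 genes, 35 rose and 1 fell, Ubtf, while Noc3l did not pass the test. Of all 14438 genes tested in this comparison, 36.8% were called higher and 35.6% lower, so called genes were common in both directions. The median log2 fold change of the 37 was 0.75, against 0.003 over all genes tested. A change beyond 2-fold upward was called for 12 members (32.4%), and for 2016 of all genes tested (14.0%). All calls used edgeR's quasi-likelihood F test with Benjamini-Hochberg adjustment over all genes tested and a threshold of 0.05, and log2 fold changes are given ± SE. In bulk RNA, a higher level in every cell and a larger share of cells with a high level cannot be told apart.

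**Figure D1:**
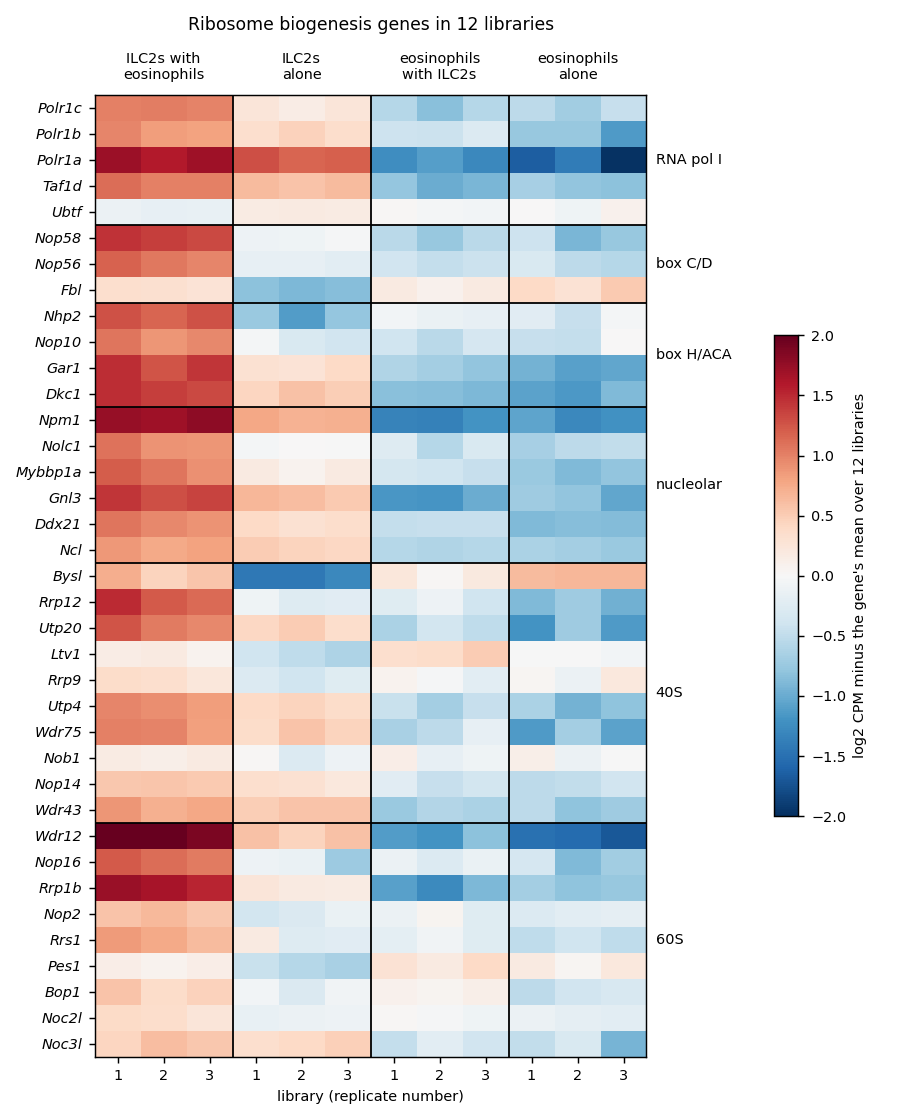
Each row is 1 of the 37 genes, grouped by role, and each column 1 of the 12 libraries, from cocultured ILC2s at the left to eosinophils alone at the right. The colour is the log2 CPM of the gene minus its mean over the 12 libraries, with red above and blue below; on average, the cocultured ILC2 columns are redder than those of ILC2s alone in every row but that of Ubtf.

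The genes of box C/D and box H/ACA proteins had the highest median responses of the 6 roles, with median log2 fold changes of 1.24 and 1.13. Both kinds of particle carry a guide RNA that pairs with ribosomal RNA, and box C/D particles methylate riboses while box H/ACA particles convert uridine to pseudouridine. Fbl, the fibrillarin methyltransferase of the box C/D particle (chr7:28169710-28179269 of GRCm38, plus strand), was at 91.5, 90.6 and 87.1 CPM in cocultured ILC2s, against 41.1, 38.7 and 39.9 CPM in ILC2s alone. Its log2 fold change was 1.16 ± 0.05 (adjusted p = 1.6e-18), and the groups did not overlap. Nop58, a scaffold of the same particle, stood at 102, 96.9 and 93.0 CPM in cocultured ILC2s, against 34.6, 35.1 and 36.6 CPM in ILC2s alone, a log2 fold change of 1.45 ± 0.05 (adjusted p = 2.2e-20). Its fellow scaffold Nop56 rose by 1.24 ± 0.05, so that the mRNAs of all 3 box C/D proteins more than doubled.

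Among the box H/ACA proteins, Nhp2 had the highest log2 fold change of the 37 genes. Nhp2, a small RNA-binding core protein (chr11:51619735-51623714, plus strand), was at 68.8, 63.4 and 68.5 CPM in cocultured ILC2s, against 17.0, 13.1 and 16.7 CPM in ILC2s alone. This is a log2 fold change of 2.09 ± 0.07 (adjusted p = 1.4e-20), with every cocultured library far above those of ILC2s alone. Dkc1, dyskerin, the pseudouridine synthase of the particle, had 66.2, 61.8 and 59.5 CPM in cocultured ILC2s and 32.2, 35.7 and 33.6 CPM in ILC2s alone, and its response of 0.88 ± 0.06 (adjusted p = 7.0e-14) was the lowest of the 4. The core proteins Nop10 and Gar1 lay between them, with log2 fold changes of 1.21 ± 0.08 and 1.05 ± 0.07.

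The mRNAs of all 6 nucleolar proteins rose, with a median log2 fold change of 0.83. Npm1, nucleophosmin, a histone and ribosomal protein chaperone, was at 985, 953 and 1009 CPM in cocultured ILC2s, against 503, 476 and 481 CPM in ILC2s alone. Its log2 fold change was 1.00 ± 0.04 (adjusted p = 7.9e-20), and per kilobase of its main transcript it was the most abundant of the 37 genes in both ILC2 groups, at 602 CPM per kb in cocultured ILC2s and 298 CPM per kb in ILC2s alone. Mouse Npm1 has many processed pseudogenes, so its count depends on how reads with several matches were treated, which is not given in the sources used here. Ncl, nucleolin, which binds the ribosomal RNA precursor, had 899, 840 and 866 CPM in cocultured ILC2s, against 706, 672 and 662 CPM in ILC2s alone. This was the smallest response among the 6, at 0.34 ± 0.04 (adjusted p = 3.4e-09), although its groups also stood apart. Between these lay Nolc1, a chaperone of small nucleolar particles (0.96 ± 0.06), Mybbp1a, a nucleolar regulator of transcription (0.91 ± 0.05), Gnl3, nucleostemin, a GTPase of proliferating cells (0.75 ± 0.07), and Ddx21, an RNA helicase (0.62 ± 0.04).

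RNA polymerase I genes moved less, with a median log2 fold change of 0.44. Polr1c, a subunit shared with RNA polymerase III, was at 53.9, 54.6 and 53.5 CPM in cocultured ILC2s, against 31.6, 29.7 and 31.8 CPM in ILC2s alone, a log2 fold change of 0.79 ± 0.06 (adjusted p = 3.8e-13). Polr1a, the largest subunit, was at 120, 111 and 120 CPM in cocultured ILC2s, against 90.3, 82.9 and 84.3 CPM in ILC2s alone, a log2 fold change of 0.44 ± 0.04 (adjusted p = 6.1e-10). The second subunit Polr1b rose by 0.49 ± 0.08 and Taf1d, a subunit of the promoter selectivity factor, by 0.42 ± 0.04. Against these 4, Ubtf was lower. Ubtf, the upstream binding factor that keeps ribosomal DNA open (chr11:102304560-102319742, minus strand), had 210, 204 and 206 CPM in cocultured ILC2s, against 257, 259 and 256 CPM in ILC2s alone. It fell by 0.33 ± 0.04 on the log2 scale (adjusted p = 5.7e-09), its groups did not overlap, and it was called lower under all 16 alternatives tried.

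**Figure D2:**
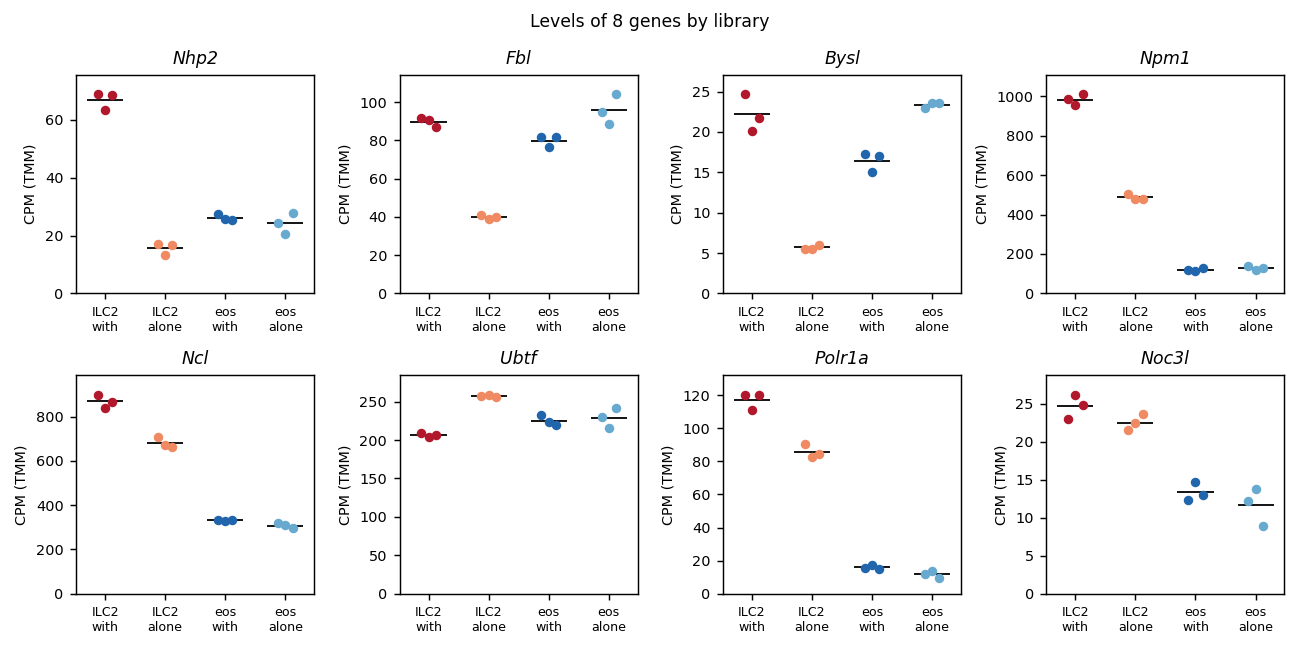
CPM of 8 genes (vertical axes, starting at 0) in the 3 libraries of each group, with cocultured before alone for ILC2s and then for eosinophils; points are libraries and lines group means. Nhp2, Fbl, Bysl, Npm1, Ncl and Polr1a are higher in cocultured ILC2s than in ILC2s alone, Ubtf is lower at 204 to 210 against 256 to 259 CPM, and the Noc3l groups overlap.

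The 10 factors of the small subunit all rose, and their responses were the most spread, from 0.24 to 1.95 with a median of 0.55. Bysl, bystin, an assembly factor of 40S precursors (chr17:47599331-47611492, minus strand), was at 24.6, 20.1 and 21.7 CPM in cocultured ILC2s, against 5.52, 5.50 and 6.04 CPM in ILC2s alone, a log2 fold change of 1.95 ± 0.11 (adjusted p = 5.3e-16). Bysl shares 361 exon bases (9.37% of its exons) with Ccnd3, the cyclin D3 gene on the other strand, which was at 180 CPM in cocultured ILC2s and 112 CPM in ILC2s alone (log2 fold change 0.68 ± 0.04). Whether the counting used strand is not given, so reads of these 2 genes cannot be told apart in the shared part, and the share of Ccnd3 in the Bysl values was not tested. Rrp12, a factor in the export of ribosome precursors, had 35.3, 29.2 and 27.5 CPM in cocultured ILC2s and 11.8, 10.5 and 10.7 CPM in ILC2s alone, and rose by 1.47 ± 0.09 (adjusted p = 2.3e-14).

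The other factors of the small subunit moved less than Bysl and Rrp12. Wdr43, a member of the complex that binds the 5′ leader of the precursor, was at 78.7, 70.0 and 72.9 CPM in cocultured ILC2s, against 59.9, 63.5 and 63.3 CPM in ILC2s alone, a log2 fold change of 0.24 ± 0.05 (adjusted p = 0.00013). Wdr75, of the same complex, had 33.5, 33.1 and 29.6 CPM in cocultured ILC2s and 21.5, 24.8 and 22.6 CPM in ILC2s alone, and rose by 0.47 ± 0.08 (adjusted p = 2.5e-06). Ltv1, a late 40S factor, had 24.0, 24.6 and 22.7 CPM in cocultured ILC2s, against 16.5, 15.3 and 14.1 CPM in ILC2s alone (0.63 ± 0.08, adjusted p = 1.0e-07). Utp20, Rrp9, Utp4, Nob1 and Nop14 rose by 0.66, 0.60, 0.51, 0.26 and 0.25. With library totals in place of TMM, which moved the median of all genes tested by -0.16, the calls of Wdr43, Nob1 and Nop14 were lost, at 0.08, 0.11 and 0.09, and 32 of the 37 genes rose.

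Of the 9 large subunit factors, 8 rose and Noc3l did not pass the test, with a median log2 fold change of 0.83. Wdr12, a member of the complex of Pes1, Bop1 and Wdr12 that processes the 60S precursor, was at 27.5, 30.2 and 23.8 CPM in cocultured ILC2s, against 9.70, 8.79 and 9.68 CPM in ILC2s alone, a log2 fold change of 1.52 ± 0.10 (adjusted p = 1.7e-14). The 3 members of this complex did not move by the same amount: Pes1 had 82.6, 79.5 and 83.3 CPM in cocultured ILC2s and 55.6, 51.1 and 48.4 CPM in ILC2s alone (0.66 ± 0.05, adjusted p = 2.9e-12), and Bop1 rose by 0.59 ± 0.06. Rrp1b, a nucleolar protein of 60S precursors, stood at 74.9, 71.0 and 65.3 CPM in cocultured ILC2s, against 26.9, 25.5 and 25.5 CPM in ILC2s alone (1.43 ± 0.06, adjusted p = 1.3e-18).

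The paired factors Noc2l and Noc3l also differed. Noc2l was at 111, 110 and 101 CPM in cocultured ILC2s, against 77.2, 78.9 and 80.2 CPM in ILC2s alone, a log2 fold change of 0.44 ± 0.04 (adjusted p = 7.4e-10). Noc3l was at 23.1, 26.2 and 24.8 CPM in cocultured ILC2s, against 21.6, 22.4 and 23.7 CPM in ILC2s alone. Its groups overlapped, and its log2 fold change of 0.12 had a 95% interval of -0.04 to 0.28 (adjusted p = 0.16). Nop16, the 28S methyltransferase Nop2 and the 5S particle assembly factor Rrs1 rose by 1.44 ± 0.12, 0.84 ± 0.07 and 0.83 ± 0.09.

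Beside these values, the summed levels of other cells' markers stood apart between the ILC2 groups. The lymphoid list itself held 13 genes that fell and 5 that rose of 18 tested. The 8 neutrophil markers summed to 1.89 to 6.20 CPM in cocultured ILC2s and 0.0436 to 0.284 CPM in ILC2s alone, with S100a8 and S100a9 at 0 in both and Mpo, at 2.70 CPM, the highest in cocultured ILC2s. The 7 erythroid and platelet markers summed to 15.4 to 19.8 CPM in cocultured ILC2s, nearly all of it Hba-a1, and 1.19 to 1.92 CPM in ILC2s alone. The T cell (8 genes), B and plasma cell (7 genes) and basophil and mast cell (11 genes) lists summed to less in cocultured ILC2s, at 78.7 to 83.3, 58.5 to 66.1 and 84.6 to 105 CPM, against 121 to 131, 157 to 173 and 222 to 240 CPM in ILC2s alone. The 5 NK cell markers summed to 3.13 to 4.05 CPM in cocultured ILC2s and 1.49 to 1.99 CPM in ILC2s alone, and the 9 monocyte and macrophage markers to 5.61 to 6.20 CPM in cocultured ILC2s and 4.01 to 4.35 CPM in ILC2s alone. The part of these cells in the result was not tested. For the eosinophil partner, the marker share in cocultured ILC2s was taken whole as partner RNA, although ILC2s alone gave a like share. So estimated, partner RNA amounted to at most 0.298% of the difference of any gene that rose, for Nob1. With that RNA subtracted, 35 genes rose and 1 fell.

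The promoters of genes that moved together are shown in part, since many ribosome biogenesis genes are known targets of Myc and of ETS factors. RefSeq promoter sequences on GRCm38.p6, 300 bases each with 250 before and 50 after the start site, were matched for 32 of the 37 genes. The E-box of letters CACGTG, which reads the same on both strands, stood in 7 of the 32 (21.9%) and in 7.24% of all 27025 promoters. An ETS core, CCGGAAG on either strand, stood in 9 of the 32 (28.1%) and in 9.14% of all, while the CCAAT box (CCAAT on either strand) stood in 11 (34.4%) and in 38% of all. These are counts of letters and not of bound sites. The 7 promoters with an E-box are given first, 5′ to 3′ on the strand of the gene, with the E-box in capitals and its distance from the start site in bases.
Nop2, chr6:125131813-125131838, plus strand, -60: gtccctggatCACGTGtgttccggtg
Pes1, chr11:3963967-3963992, plus strand, 2: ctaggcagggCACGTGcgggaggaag
Utp4, chr8:106893645-106893670, plus strand, 15: cgcaagcgcgCACGTGgggccggggc
Wdr43, chr17:71616222-71616247, plus strand, 17: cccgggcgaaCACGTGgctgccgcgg
Ltv1, chr10:13193094-13193119, minus strand, 28: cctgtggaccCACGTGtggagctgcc
Utp20, chr10:88826765-88826787, minus strand, 37: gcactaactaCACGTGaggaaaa
Mybbp1a, chr11:72441357-72441376, plus strand, 40: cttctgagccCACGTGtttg
Their ILC2 responses ran from 0.24 (Wdr43) to 0.91 (Mybbp1a), so none of the 7 was among the 12 genes that more than doubled. Of those 12, however, Fbl, Npm1 and Rrp12 had no matched promoter and were not searched, nor were Bop1 and Rrs1. The ETS core is shown, in capitals, for the gene of highest response, for a polymerase subunit and for the gene that did not pass the test.
Nhp2, chr11:51619740-51619766, plus strand, -23: acttgaaaacCCGGAAGtgatgtcgga
Polr1c, chr17:46248071-46248097, minus strand, -42: cacttgacgtCCGGAAGtgaaggacgt
Noc3l, chr19:38819196-38819222, minus strand, 25: ctgaaagcgtCTTCCGGtttgggaaag
Nhp2 and Noc3l thus both carried these letters, although their log2 fold changes in ILC2s were 2.09 and 0.12. In position, 8 of the 37 genes (21.6%) faced the start of another protein-coding gene on the other strand within 1000 bases, against 7.93% of protein-coding genes in the table, and the 37 lay on 17 chromosomes. The bodies of 7 genes held 27 annotated small nucleolar RNAs, but 14 of these had 0 counts in every library and the highest total was 181 counts over all 12, so these RNAs were hardly measured. Exons of 15 of the 37 genes shared 5 to 598 bases with a gene on the other strand, the most in Noc2l with Samd11, and the values of these 15 are uncertain to that extent.

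In eosinophils cultured with ILC2s, 9 of the 37 genes rose, 2 fell and 26 did not pass the test, while of all 13109 genes tested 11.4% were called higher and 13.5% lower. Calls in the higher direction were 45.7% of all calls, and 58.0% with library totals. The median log2 fold change of the 37 was 0.108, against 0.004 over all genes tested. The 9 that rose were Polr1a, Polr1b, Ddx21, Mybbp1a, Wdr75, Utp20, Rrp12, Ltv1 and Bop1, all of which also rose in ILC2s. Without the third library of eosinophils alone, or without the third of cocultured eosinophils, the count that rose was 5.

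**Figure D3:**
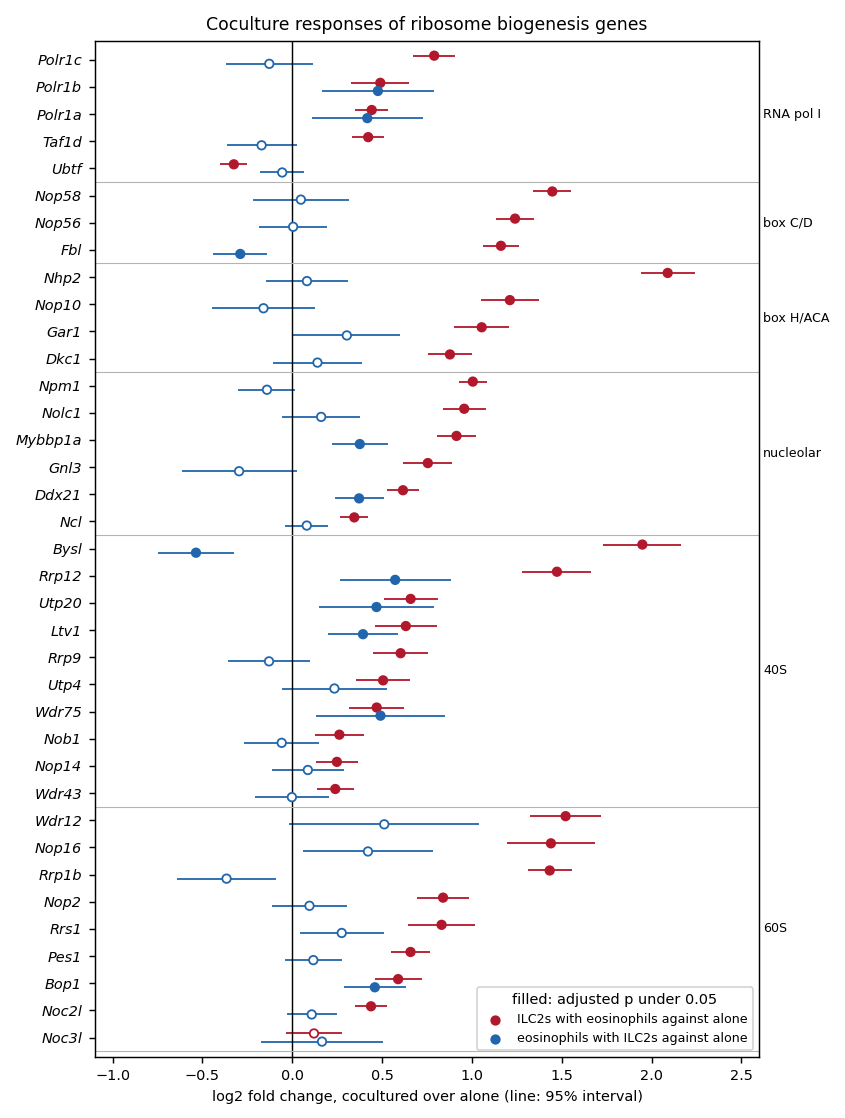
Log2 fold change of each of the 37 genes in cocultured over alone cells (horizontal axis), with 95% intervals, in ILC2s (red) and eosinophils (blue); filled points passed the test. The red points reach 2.09 (Nhp2) and all but those of Ubtf and Noc3l are filled above 0, while the blue points lie between -0.54 (Bysl) and 0.57 (Rrp12) and 11 are filled.

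Rrp12 had the highest eosinophil response. It was at 10.6, 11.6 and 9.50 CPM in cocultured eosinophils, against 6.75, 7.64 and 6.44 CPM in eosinophils alone, a log2 fold change of 0.57 ± 0.14 (adjusted p = 0.0097). Ltv1 was at 27.4, 28.0 and 30.8 CPM in cocultured eosinophils, against 21.7, 21.7 and 20.9 CPM in eosinophils alone, and rose by 0.39 ± 0.09 (adjusted p = 0.0052). In both genes every cocultured library lay above every library of eosinophils alone. The smallest p-values among the 9 belonged to Ddx21, which rose by 0.37 ± 0.06 (adjusted p = 0.00063), Bop1, which rose by 0.46 ± 0.08 (adjusted p = 0.00076), and Mybbp1a, which rose by 0.38 ± 0.07 (adjusted p = 0.0016).

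The remaining rises were close to the threshold. Polr1a was at 15.6, 17.3 and 15.1 CPM in cocultured eosinophils, against 11.8, 13.9 and 9.41 CPM in eosinophils alone, a log2 fold change of 0.42 ± 0.14 with an adjusted p of 0.0497, and its call was lost in 8 of 16 alternatives. Wdr75 was at 10.6, 11.7 and 14.9 CPM in cocultured eosinophils, against 7.62, 10.4 and 7.93 CPM in eosinophils alone, and rose by 0.49 ± 0.17 (adjusted p = 0.046). Its lowest cocultured library lay just above the highest of eosinophils alone. Wdr12 had the second highest estimate, 0.51 ± 0.24 (adjusted p = 0.16), at only 2.97, 2.81 and 3.64 CPM in cocultured eosinophils and 2.27, 2.22 and 1.98 CPM in eosinophils alone.

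The 2 genes that fell in cocultured eosinophils, Fbl and Bysl, rose in cocultured ILC2s. Fbl was at 81.5, 76.5 and 81.7 CPM in cocultured eosinophils, against 94.9, 88.3 and 104 CPM in eosinophils alone, and fell by 0.29 ± 0.07 on the log2 scale (adjusted p = 0.0073). Bysl was at 17.3, 15.1 and 17.0 CPM in cocultured eosinophils, against 23.0, 23.5 and 23.5 CPM in eosinophils alone, and fell by 0.54 ± 0.10 (adjusted p = 0.0010). Its overlapping neighbour Ccnd3 was far more abundant and also lower, at 464 CPM in cocultured eosinophils and 999 CPM in eosinophils alone (log2 fold change -1.14 ± 0.06), and its share in the Bysl values was not tested.

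Other low estimates did not pass. Rrp1b was at 10.6, 9.34 and 12.1 CPM in cocultured eosinophils, against 14.2, 13.0 and 13.4 CPM in eosinophils alone, a log2 fold change of -0.37 ± 0.13 (adjusted p = 0.052), and was called lower in 6 of 16 alternatives. Gnl3 was at 7.11, 6.98 and 7.97 CPM in cocultured eosinophils, against 9.69, 9.12 and 7.74 CPM in eosinophils alone (-0.30 ± 0.15, adjusted p = 0.18), with overlapping groups. Nhp2 was at 0.08 (95% interval -0.15 to 0.31), Nop58 at 0.05 (-0.22 to 0.31), Ubtf at -0.06 (-0.18 to 0.07) and Nop16 at 0.42 (0.06 to 0.78), and the genes with strong ILC2 responses thus lay over the whole range of eosinophil estimates, from Bysl to Rrp12.

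Beside the eosinophil values, the 11 basophil and mast cell markers summed to 110 to 118 CPM in cocultured eosinophils and 233 to 256 CPM in eosinophils alone, and 5 of the 7 tested fell. Gata2, which eosinophils also express, averaged 80.3 CPM in cocultured eosinophils and 154 CPM in eosinophils alone. Hdc averaged 14.3 CPM in cocultured eosinophils and 33.6 CPM in eosinophils alone, Cd200r3 11.0 and 33.7 CPM, Kit 2.69 and 11.5 CPM and Fcer1a 1.67 and 3.72 CPM in the same order, and Tpsb2 and Prss34 were at or near 0. Neutrophil markers (8 genes) summed to 8.84 to 9.86 CPM in cocultured eosinophils and 13.4 to 18.1 CPM in eosinophils alone. The 9 monocyte and macrophage markers summed to 1080 to 1104 CPM in cocultured eosinophils and 905 to 936 CPM in eosinophils alone. The 7 B and plasma cell markers summed to 217 to 242 CPM in cocultured eosinophils and 172 to 200 CPM in eosinophils alone, and the part of these cells in the result was not tested. The signal of 11 lymphoid markers, as a share of their level in cocultured ILC2s, was 0.0628% ± 0.0193 in cocultured eosinophils. It was 0.113% ± 0.0463 in eosinophils alone, which had no partner (SD, n = 3 each, exact two-sided permutation p = 0.2). These markers too were chosen partly by the cells alone, so the test cannot decide whether the groups differ. Taken whole as ILC2 RNA, the cocultured share amounted to at most 2.16% of the difference for the 9 genes that rose, for Polr1a.

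The responses of the 2 cell types differed for most of the set. The difference, ILC2 response minus eosinophil response in a fit of all 12 libraries, was called above 0 for 26 genes, below 0 for Ubtf, and did not pass for 10. Over all 15745 genes tested, 26.8% were called above and 24.8% below 0. Calls above 0 were 52.0% of all calls, and 39.6% with library totals, under which 21 of the 37 genes were called above 0. The smallest p-values belonged to Bysl at 2.46 (95% interval 2.16 to 2.76, adjusted p = 8.5e-13), Fbl at 1.43 (1.25 to 1.61, adjusted p = 2.0e-12), Nhp2 at 1.99 (1.70 to 2.28, adjusted p = 2.4e-11), Rrp1b at 1.78 (1.51 to 2.05, adjusted p = 4.8e-11) and Npm1 at 1.12 (0.95 to 1.30, adjusted p = 8.7e-11). All 3 box C/D, all 4 box H/ACA and all 6 nucleolar genes were called above 0, but only 4 of the 10 small subunit genes.

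The subunits of RNA polymerase I divided in this respect. Polr1a and Polr1b gave differences of 0.00 (-0.38 to 0.38) and -0.01 (-0.32 to 0.30), and both rose in cocultured cells of either type. Polr1c was called above 0, at 0.90 (0.65 to 1.15, adjusted p = 9.2e-07), and so was Taf1d, at 0.57. Ubtf was called below 0, at -0.29 (-0.44 to -0.14, adjusted p = 0.0015). Among the other genes that did not pass were Wdr75 at -0.04 (-0.40 to 0.32), Noc3l at -0.07 (-0.41 to 0.28) and Bop1 at 0.11 (-0.12 to 0.34), intervals that leave room for a difference in either direction.

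Cell types were then set against each other. ILC2s alone were higher than eosinophils alone for 26, lower for 6 and without a call for 5, while of all 14525 genes tested 40.8% were called higher and 39.9% lower. Polr1a (90.3, 82.9 and 84.3 CPM in ILC2s alone, against 11.8, 13.9 and 9.41 CPM in eosinophils alone) had the highest log2 fold change, 2.88 ± 0.11 (adjusted p = 1.8e-12). Wdr12 and Npm1 followed, at 2.13 ± 0.17 and 1.92 ± 0.07. The 6 that were lower in ILC2s alone were Bysl (-2.03 ± 0.11), Fbl (-1.26 ± 0.07), Pes1 (-0.69 ± 0.07), Nhp2 (-0.62 ± 0.12), Ltv1 (-0.48 ± 0.10) and Rrp9 (-0.34 ± 0.10).

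In coculture the balance was further towards the ILC2s. Cocultured ILC2s were higher than cocultured eosinophils for 34 genes and lower for Ltv1, Pes1 and Ubtf, against 43.6% higher and 40.5% lower of all 14634 genes tested. Wdr12, Npm1 and Polr1a again led, at 3.10 ± 0.13, 3.03 ± 0.05 and 2.86 ± 0.07. Fbl, Nhp2, Rrp9 and Bysl, which were lower in ILC2s than in eosinophils when alone, were higher when cocultured, with Nhp2 at 1.35 ± 0.07 (adjusted p = 2.5e-17) and Fbl at 0.16 ± 0.05 (adjusted p = 0.0080). Pes1 was at 82.6, 79.5 and 83.3 CPM in cocultured ILC2s, against 92.1, 86.1 and 100 CPM in cocultured eosinophils, a log2 fold change of -0.19 ± 0.06 (adjusted p = 0.0033). Ubtf crossed the other way, at -0.13 ± 0.05 cocultured (adjusted p = 0.011) and 0.18 ± 0.06 alone (adjusted p = 0.010).

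Comparisons of the cell types depended on the scaling more than the coculture comparisons did. With library totals in place of TMM the median over all genes tested moved by 0.57 alone and 0.40 cocultured, the share of calls in the higher direction moved to 70.1% and 65.8%, against 50.5% and 51.8%, and Rrp9 when alone and Ubtf and Pes1 when cocultured were called in the opposite direction, while Ltv1 changed sign in both without a call. The 5 genes without a call when alone, Nop10, Nob1, Nop2, Nop16 and Noc2l, were all called higher under library totals, and the lower calls of Nhp2 and Pes1 were lost, at -0.05 and -0.12. With upper quartile scaling Ubtf and Pes1 were near 0 in coculture.

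**Figure D4:**
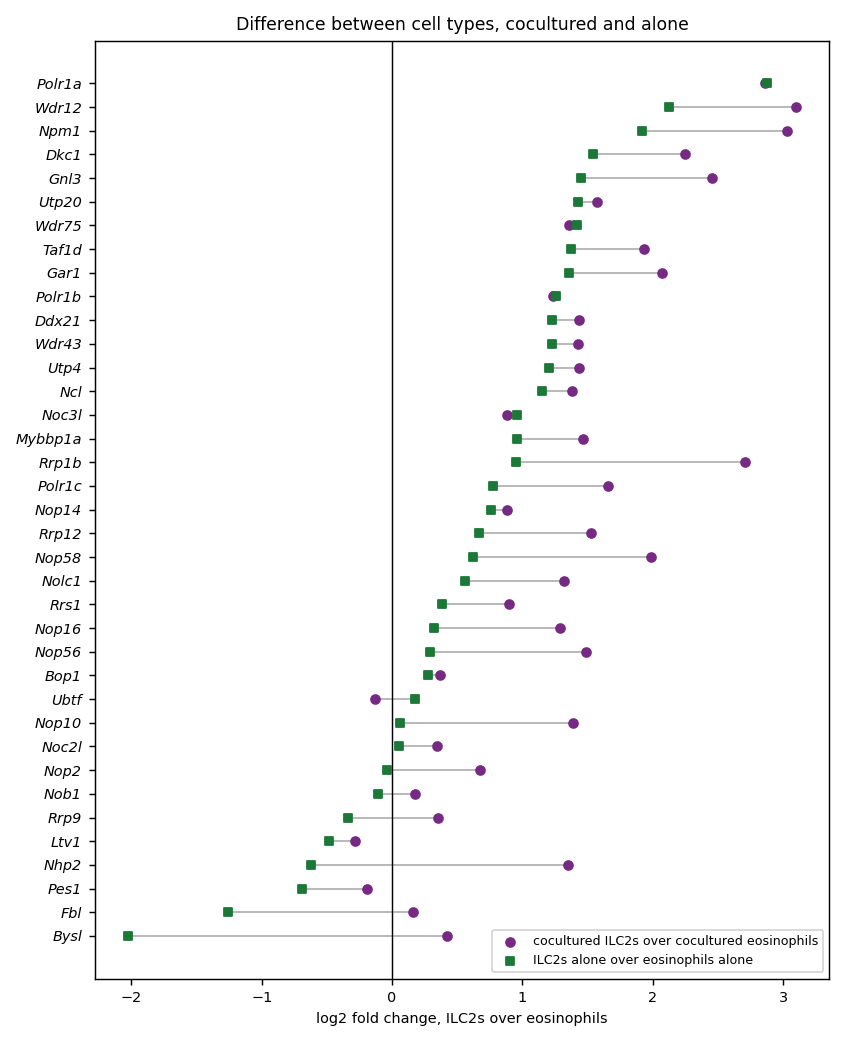
Log2 fold change of ILC2s over eosinophils for each of the 37 genes, cocultured (purple circles) and alone (green squares), ordered by the value alone. The circles lie to the right of the squares for most genes, by most for Bysl (0.42 against -2.03) and Nhp2 (1.35 against -0.62), and to the left by most for Ubtf (-0.13 against 0.18).

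Taken as a sum, the 37 genes made up 0.463% ± 0.0156 of all counts in cocultured ILC2 libraries and 0.330% ± 0.00563 in those of ILC2s alone (SD, n = 3 each). They made up 0.138% ± 0.00250 in cocultured eosinophils and 0.128% ± 0.00374 in eosinophils alone. In eosinophils the lowest cocultured library, at 0.135%, lay above the highest library of eosinophils alone, at 0.132%, and ILC2 libraries stood well apart at 0.454% or more against 0.336% or less. Per kilobase, Npm1 led in cocultured eosinophils at 73.3 CPM per kb, closely followed by Fbl at 66.7, and Fbl led in eosinophils alone at 80.0 CPM per kb, with Npm1 at 79.2.

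**Figure D5:**
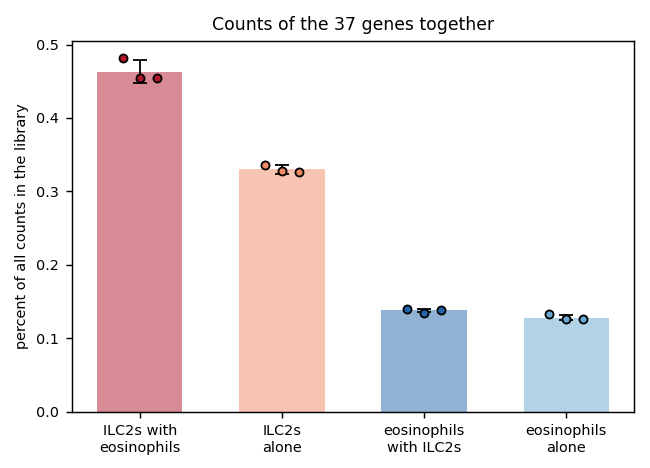
Counts of the 37 genes together as a percent of all counts in each library (vertical axis from 0), with bars for group means, error bars for the SD and points for the 3 libraries of a group. The cocultured ILC2 libraries, at 0.454 to 0.481%, lie above those of ILC2s alone, at 0.326 to 0.336%, and both eosinophil groups lie under 0.140%.

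The rest of the pathway was read from 118 tested genes outside the 37, in lists of polymerase I subunits and factors, assembly factors of small nucleolar particles, 40S and 60S factors and the RNA exosome, which trims precursors. In ILC2s, 73 rose and 15 fell, with a median log2 fold change of 0.30 (36.8% and 35.6% of all genes tested were called higher and lower). From each list the called genes of highest and lowest log2 fold change are given. The assembly factors of small nucleolar particles rose in 7 of 8, with Naf1, which loads box H/ACA particles, at 23.9, 21.3 and 19.8 CPM in cocultured ILC2s against 10.0, 9.37 and 9.05 CPM in ILC2s alone (1.19 ± 0.10). The lowest called, Nufip1, a box C/D assembly factor, was at 20.6, 20.99 and 22.8 CPM in cocultured ILC2s against 17.5, 16.0 and 16.9 CPM in ILC2s alone (0.34 ± 0.08), and neither gene had overlapping groups.

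The other 40S factors rose in 28 of 41 and fell in 2. Pno1, a partner of Nob1, was at 31.8, 27.2 and 30.3 CPM in cocultured ILC2s against 14.5, 13.8 and 12.6 CPM in ILC2s alone (1.13 ± 0.08). Utp11, of the early 40S precursor, was at 50.1, 48.8 and 56.6 CPM in cocultured ILC2s against 60.1, 62.1 and 59.1 CPM in ILC2s alone (-0.23 ± 0.06). The other 60S factors rose in 26 of 46 and fell in 9. Mrto4, an assembly factor of the ribosomal stalk, was at 30.8, 26.1 and 25.0 CPM in cocultured ILC2s against 9.89, 8.70 and 9.40 CPM in ILC2s alone (1.54 ± 0.09). Nop53, which recruits the exosome in yeast, was at 318, 334 and 342 CPM in cocultured ILC2s against 514, 437 and 449 CPM in ILC2s alone (-0.50 ± 0.05).

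Exosome genes rose in 10 of 13 in ILC2s. The cofactor Mphosph6 was at 27.2, 26.7 and 27.5 CPM in cocultured ILC2s against 10.3, 7.89 and 9.12 CPM in ILC2s alone (1.57 ± 0.09). The core subunit Exosc4 alone fell, at 19.4, 18.3 and 18.4 CPM in cocultured ILC2s against 23.5, 20.2 and 22.9 CPM in ILC2s alone (-0.26 ± 0.08).

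Other polymerase I genes did not share one direction in ILC2s. Of 10, 2 rose, 3 fell and 5 did not pass, with a median of -0.02. Polr1g was at 16.0, 13.2 and 15.9 CPM in cocultured ILC2s, against 11.2, 9.92 and 11.0 CPM in ILC2s alone (0.48 ± 0.10, adjusted p = 0.00013). Taf1a, a subunit of the promoter selectivity factor, was at 11.0, 11.4 and 9.86 CPM in cocultured ILC2s, against 16.9, 17.3 and 17.2 CPM in ILC2s alone, and fell by 0.68 ± 0.09 (adjusted p = 2.3e-07). Taf1a thus moved in the same direction as Ubtf and opposite to Taf1d. The other genes of this list that fell were Taf1c, at -0.42 ± 0.08 (adjusted p = 1.4e-05), and Ttf1, at -0.29 ± 0.06 (adjusted p = 7.4e-05). Taf1b, at -0.07, did not pass.

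In eosinophils 19 of these 118 genes rose and 7 fell, with 11.4% and 13.5% of all genes tested called higher and lower. The 10 polymerase I genes, at -0.28 to 0.27, did not pass edgeR's test, 2 of them having an unadjusted p under 0.05. Among 40S factors, of which 9 rose and 2 fell, Rcl1 was at 6.12, 5.01 and 5.18 CPM in cocultured eosinophils, against 2.27, 2.34 and 3.34 CPM in eosinophils alone (1.00 ± 0.22, adjusted p = 0.0041). Bms1, a GTPase of the 40S precursor, was at 104, 122 and 110 CPM in cocultured eosinophils, against 145, 158 and 136 CPM in eosinophils alone (-0.41 ± 0.08). Among 60S factors, 8 rose and 2 fell. Ftsj3, an RNA methyltransferase, was at 35.7, 29.2 and 33.9 CPM in cocultured eosinophils, against 25.1, 21.6 and 24.7 CPM in eosinophils alone (0.44 ± 0.10). Sdad1 was at 26.6, 28.1 and 24.9 CPM in cocultured eosinophils, against 44.8, 44.6 and 37.1 CPM in eosinophils alone (-0.70 ± 0.10).

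The largest fall in this list of 118 in eosinophils was that of Exosc8, an exosome core subunit. It was at 33.6, 29.9 and 36.2 CPM in cocultured eosinophils, against 98.7, 90.7 and 87.8 CPM in eosinophils alone, and fell by 1.503 ± 0.084 (adjusted p = 1.7e-08). In ILC2s Exosc8 had 98.8, 96.0 and 98.6 CPM when cocultured and 34.6, 36.7 and 36.1 CPM when alone, and rose by 1.44 ± 0.05. Both cell types thus held this gene at like levels, with the order of cocultured and alone cells turned round, a difference of responses of 2.92 ± 0.10 (adjusted p = 1.7e-17). Ruvbl2, an ATPase in the assembly of small nucleolar particles, showed the same pattern, at 31.4, 29.9 and 32.95 CPM in cocultured eosinophils against 55.6, 59.5 and 62.2 CPM in eosinophils alone (-0.94 ± 0.08), while it rose by 1.15 ± 0.06 in ILC2s. Another exosome core gene, Exosc1, rose by 0.58 ± 0.11 in eosinophils, at 15.9, 17.1 and 17.98 CPM when cocultured and 11.1, 10.9 and 11.5 CPM when alone. For these 118 genes together the difference of responses was called above 0 for 55 and below 0 for 14, against 26.8% and 24.8% of all genes tested.

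Host genes of small nucleolar RNAs, which are mostly non-coding, rose in 7 of 11 and fell in 2 in ILC2s, while in eosinophils 4 of 11 fell and 7 did not pass. The shares of all genes tested called higher and lower were 36.8% and 35.6% in ILC2s, and 11.4% and 13.5% in eosinophils. Snhg5 was at 32.6, 35.0 and 32.7 CPM in cocultured ILC2s against 14.2, 12.3 and 13.7 CPM in ILC2s alone (1.31 ± 0.08). Snhg20 was at 15.4, 15.4 and 15.5 CPM in cocultured ILC2s against 26.7, 24.1 and 26.3 CPM in ILC2s alone (-0.75 ± 0.08). In eosinophils the falls reached 0.63 ± 0.17 for Snhg8, at 7.48, 6.02 and 7.51 CPM when cocultured and 12.6, 8.20 and 11.2 CPM when alone. That call was lost without the first library of eosinophils alone (adjusted p = 0.082) or the second of cocultured eosinophils (adjusted p = 0.069).

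Of 6 genes that link faulty ribosome assembly to p53, all 6 rose in ILC2s, although Mdm2 was at -0.04 without a call under library totals, and 3 rose and 3 fell in eosinophils. The shares of all genes tested called higher and lower were 36.8% and 35.6% in ILC2s, and 11.4% and 13.5% in eosinophils. Cdkn2a, among whose products Arf blocks the p53 ligase Mdm2, was at 22.7, 21.4 and 23.6 CPM in cocultured ILC2s against 6.91, 9.10 and 7.13 CPM in ILC2s alone (1.54 ± 0.10). These counts are of the whole gene, so the level of Arf transcripts alone was not measured. Mdm2 itself was at 116, 118 and 119 CPM in cocultured ILC2s against 108, 111 and 107 CPM in ILC2s alone (0.11 ± 0.04), the smallest of the 6, and its call was also lost without the third library of ILC2s alone. In eosinophils Trp53, the p53 gene itself, was at 78.1, 75.7 and 75.2 CPM when cocultured and 55.8, 47.3 and 51.7 CPM when alone, and rose by 0.54 ± 0.07. Cdkn1a, the cell cycle inhibitor p21, was at 45.0, 45.5 and 46.9 CPM in cocultured eosinophils against 204, 180 and 204 CPM in eosinophils alone, a fall of 2.13 ± 0.07 (adjusted p = 5.5e-11).

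For ribosomal RNA itself there were only 2 rows at or beside an 18S annotation on chromosome 17, Gm42418 and Gm26917. Of Gm42418 (chr17:39846958-39848788), 1245 bases overlap the RefSeq gene Rn18s-rs5. Gm26917 (chr17:39843013-39846341) overlaps that gene by 0 bases, and whether its reads are ribosomal RNA was not tested. Gm42418 was at 1679, 1442 and 2168 CPM in cocultured ILC2s, against 1532, 504 and 610 CPM in ILC2s alone (0.99 ± 0.21, adjusted p = 0.00011), and the groups overlapped. In eosinophils it was at 526, 560 and 525 CPM when cocultured, against 782, 4952 and 1262 CPM when alone (-2.16 ± 0.48, adjusted p = 0.0046). Without the second library of eosinophils alone this was -0.95, and without the first of ILC2s alone the ILC2 value was 1.65. Gm26917 gave 1.57 ± 0.21 in ILC2s and -1.20 ± 0.29 in eosinophils, the second being -0.59 without that same library of eosinophils alone. With DESeq2 the calls of Gm42418 in ILC2s (adjusted p = 0.11) and of Gm26917 in eosinophils (adjusted p = 0.055) were lost. Both rows scattered more among the libraries of eosinophils alone than among those of cocultured eosinophils, and since how ribosomal RNA was removed is not given, the part of that step in these values was not tested.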

How the data were processed

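RNA of 12 libraries in 4 groups of 3 was measured by sequencing. The authors deposited unnormalized counts of reads for each Ensembl gene. Build mm10 and the tools STAR 2.5.2b, Subread 1.5.2, featureCounts, Trimmomatic 0.36 and bcl2fastq 2.17 stand in the submitters' processing notes. Annotation release, strand setting and the treatment of reads with several matches were not stated.

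Symbols and positions came from GENCODE M21 (48970 of 49315 identifiers matched). The members and all lists were chosen with earlier results of these data known. Values in every library were given, by rule, for the member of highest level and those of highest and lowest ILC2 response in each role, for the 3 highest and 3 lowest in the other comparisons, for the 5 smallest p-values of the difference, and for members against the ILC2 direction or without a call. Of each other list the highest and lowest called gene was named, with Taf1b, Taf1c and Ttf1 beside Taf1a.

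Each comparison was fitted in edgeR 4.0.16 (R 4.3.3) with filterByExpr, TMM, the quasi-likelihood F test and no covariates, on its 6 libraries (all 12 for the difference of responses), and genes with an adjusted p under 0.05 were called. All 37 members passed the filter in every fit. The SE was the size of the log2 fold change divided by the square root of F. Printed CPM of genes used 1 TMM scaling over all 12 libraries, so that ratios of them can differ slightly from the fitted folds. CPM of the cell type markers, single or summed, and the partner shares were scaled by library totals instead. Partner RNA was the median over markers that reached 10 CPM in the cocultured partner and stayed within 1% of it in the other cell when alone. This choice used the cells alone, against which the share was then tested. Levels per kilobase used the principal transcript.

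Replicates were no duplicates (chi-square per degree of freedom 2.57 to 19.5), and same-numbered libraries did not deviate together (correlations -0.0176 to 0.0967). The fits were tested on simulated data. Alternatives were RLE, upper quartile and library total scaling, other filters, DESeq2 1.42.0, limma-voom (limma 3.58.1), a replicate block, a joint fit, subtraction of partner RNA and leaving out each library. At 3 libraries a group an exact permutation test cannot go below p = 0.1. The genes Riok2, Rn45s and Rn18s-rs5 were not analysed here.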

Additional observations from a re-analysis of the deposited data

Results flagged for a closer look

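The coculture responses of ILC2s and eosinophils differed, by the edgeR quasi-likelihood test of the difference over all 12 libraries (adjusted p under 0.05), for 27 of the 37 genes. Of all genes tested 26.8% were called above and 24.8% below 0. Each value below is the ILC2 response minus the eosinophil response on the log2 scale. For RNA polymerase I genes it was 0.90 for Polr1c, 0.57 for Taf1d and -0.29 for Ubtf. Among the box C/D proteins it was 1.43 for Fbl, 1.21 for Nop56 and 1.38 for Nop58, and among the box H/ACA proteins 0.72 for Dkc1, 0.73 for Gar1, 1.99 for Nhp2 and 1.35 for Nop10. The nucleolar proteins gave 0.24 for Ncl, 1.12 for Npm1, 0.78 for Nolc1, 0.22 for Ddx21, 1.03 for Gnl3 and 0.52 for Mybbp1a. Small subunit factors gave 0.71 for Rrp9, 0.88 for Rrp12, 2.46 for Bysl and 0.30 for Nob1. Large subunit factors gave 0.52 for Pes1, 0.99 for Wdr12, 0.72 for Nop2, 0.99 for Nop16, 1.78 for Rrp1b, 0.53 for Rrs1 and 0.31 for Noc2l. Nob1 and Ddx21 were the least firm, losing their calls in 14 and 6 of 20 alternatives. Nob1 did so at 0.23 to 0.32 without library 2 or 3 of ILC2s alone, any of cocultured ILC2s, 1 or 3 of eosinophils alone, or 2 or 3 of cocultured eosinophils. Ddx21 did so at 0.18 to 0.21 without library 2 of ILC2s alone or library 1 of either cocultured group. Library totals ended the calls of Ncl, Noc2l and Rrs1 as well, at 0.05, 0.12 and 0.34.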

How the results depend on the processing

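Single genes were recomputed under 15 to 20 alternatives a comparison, and the cause of the changes below was not tested. In the ILC2 comparison 589 of 592 gene values kept direction and side of the threshold, and in the eosinophil comparison 559 of 592, with 21 calls lost and 12 gained. Of the highest and lowest called genes of the other lists, 410 of 416 values in ILC2s and 404 of 416 in eosinophils did so. Mdm2 was at -0.0448 in ILC2s with library totals. With library totals, ILC2s alone against eosinophils alone gave values above 0 for Rrp9 (0.23), Ltv1 (0.087), Nob1 (0.46) and Nop2 (0.54), 2 members lower, and 88 other pathway genes higher and 11 lower. Cocultured ILC2s against cocultured eosinophils gave 0 members lower with upper quartile scaling, where Ubtf was 0.0687, Pes1 0.009 and Ltv1 -0.09 (edgeR adjusted p = 0.33), and 0 lower with library totals, where Ubtf was 0.27, Ltv1 0.11 and Pes1 0.21; 17 and 5 other pathway genes were lower under these 2 settings. With TMM edgeR called 3 members lower. Other pathway genes called lower numbered 27 in ILC2s with library totals, and 25 (upper quartile) and 32 (library totals) for the difference of responses; 32 were called higher in eosinophils with all libraries in one fit. For the difference of responses, library totals also shifted the overall median by -0.19.

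Leaving out 1 library at a time gave 5 to 9 members and 8 to 19 other pathway genes higher in eosinophils, and 35 members higher in ILC2s each time. The summed level, 4631, 3299, 1379 and 1281 CPM by library totals (cocultured ILC2s, ILC2s alone, cocultured eosinophils, eosinophils alone), was 4151, 2640, 1616 and 1530 CPM with TMM and 2337, 1520, 801.9 and 723.6 CPM without the 3 most abundant members. With the replicate block, 35 members rose in ILC2s and 10 rose and 3 fell in eosinophils, no count moving by over 1.5 times; the numbers did not pair the libraries. In eosinophils Wdr12, the lowest there at 1.98 to 3.64 CPM, had an SE of 0.24.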
